A study of Mus musculus with 2 samples.

Results

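The genes described here are 9 mouse long noncoding RNA genes, chosen by name, with no measured value in the rule, though earlier results of these data were known when the names were listed. They are the small nucleolar RNA (snoRNA) host genes Gas5, Snhg1, Snhg3, Snhg5, Snhg6, Snhg8 and Snhg12, and Malat1 and Neat1, whose RNAs stay in the nucleus. Of the 9, 8 have a row under their Entrez identifier among the 13056 genes with such an identifier in the deposited table, and Neat1 has none. The sequenced RNA came from CD4+ T cells. Their donors were C57BL/6 mice, wild type by genotype and 6 to 8 weeks old. The T cells were cultured for 48 h under T helper 17 (Th17) conditions, in one culture with wild-type antigen presenting cells (WT APCs) and in the other with APCs transgenic for OX40L (OX40L-TG APCs), which binds the costimulatory receptor OX40 on T cells. Each condition has 1 library, made from 1 µg of total RNA per the labels. The labels used here do not give the promoter of the transgene, the type of APC or the share of APCs left in the harvested cells.

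A snoRNA host gene carries snoRNA genes in its introns. When the transcript is spliced, the introns release snoRNAs, which guide chemical modification and processing of ribosomal and other RNAs in the nucleolus, while the spliced host RNA goes to the cytoplasm. Many host RNAs begin with a run of pyrimidines, a feature shared with messenger RNAs of ribosomal proteins, and several are degraded by nonsense-mediated decay once ribosomes engage them. Malat1 accumulates in nuclear speckles, where splicing factors are stored, and Neat1 RNA is the scaffold of paraspeckles.

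The 60 bases around annotated starts are printed because many host RNAs begin with a run of pyrimidines. RefSeq promoter windows of build GRCm38.p6 were found for 7 of the 9 genes (8 windows, with 2 starts for Gas5) and not for Snhg6 and Neat1. Each line runs 5′ to 3′ from 40 bases before the annotated start to 20 bases after it. Capitals mark the letters TATA between 40 and 16 bases before the start, and a run of at least 5 C or T bases that begins with C within 10 bases of the start.
Gas5, first start, chr1:161034561-161034620, plus strand: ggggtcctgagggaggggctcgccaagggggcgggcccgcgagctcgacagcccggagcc
Gas5, second start, chr1:161035126-161035185, plus strand: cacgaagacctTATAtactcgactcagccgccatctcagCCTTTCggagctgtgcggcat
Snhg1, chr19:8723447-8723506, plus strand: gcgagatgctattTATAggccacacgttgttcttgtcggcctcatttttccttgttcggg
Snhg3, chr4:132353667-132353726, minus strand: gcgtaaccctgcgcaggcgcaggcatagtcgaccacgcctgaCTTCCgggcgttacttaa
Snhg5, chr9:88522878-88522937, minus strand: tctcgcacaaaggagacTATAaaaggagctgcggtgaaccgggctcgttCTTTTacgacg
Snhg8, chr3:123508317-123508376, minus strand: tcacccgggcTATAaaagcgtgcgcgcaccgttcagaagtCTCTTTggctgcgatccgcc
Snhg12, chr4:132308638-132308697, plus strand: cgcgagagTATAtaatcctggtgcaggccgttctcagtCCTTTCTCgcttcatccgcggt
Malat1, chr19:5802653-5802712, minus strand: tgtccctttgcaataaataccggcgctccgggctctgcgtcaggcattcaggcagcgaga

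TATA, which reads the same on both strands, occurred in 5 of the 8 windows, against 5.91% of all 32841 promoter windows of the table and 5.29% of the 11586 windows of long noncoding genes. The pyrimidine run occurred in 5 of the 8 windows, against 30.7% of all windows. Its counterpart on the other strand, a run of A or G ending in G, occurred in 34.9% of all windows. Both features together were found in 4 windows, those of the second Gas5 start, Snhg5, Snhg8 and Snhg12, and in 1.88% of all windows. Among 219 windows of protein-coding genes that carry snoRNA genes, 3 (1.37%) had both. The printed Gas5 locus begins at 161035165, next to the second start at 161035166, the one with TATA and the pyrimidine run. These are matches of letters and not sites shown to be used in these cells.

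None of the 8 RNAs with a row differed 2-fold between the libraries. Malat1 was the most abundant in both, followed by Snhg1, and Snhg8 was the least abundant. On the deposited scale the ratios (OX40L-TG over WT) ran from 0.829 for Malat1 to 1.33 for Snhg6. Which of these stood farther from no change depended on the scaling: their log2 changes were -0.27 and 0.41 as deposited, -0.40 and 0.28 with the median ratio of well-expressed genes set to 1, and -0.45 and 0.23 with equal totals. Levels are in FPKM (fragments per kilobase of transcript scaled to library size), which is meant for comparison between genes and is less certain for very short ones. With 1 library per condition there is no replicate check, no test and no p-value, and every statement compares these libraries and not the conditions. In such bulk libraries fewer cells of a type and less RNA per cell cannot be told apart.

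Change is expressed as log2((OX40L-TG FPKM + 1)/(WT FPKM + 1)), and a gene is called higher or lower when this reaches 2-fold. All 8 RNAs passed the filter, which asked for 1 FPKM or more in one of the libraries. Of the 10645 genes kept, 241 (2.26%) were called higher and 141 (1.32%) lower, 3.59% in either direction, against 0 and 0 of the 8. With 8 genes this share is near the background and is no result about them. The median change of the 8 was -0.07, beside a median of 0.11 over all kept genes, whose central 50% ran from -0.05 to 0.29. Since scaling on well-expressed genes removes that shift of 0.11, changes relative to it are given as well. Scaling by the median ratio of genes with at least 10 FPKM turned the counts over all genes to 188 higher and 175 lower, and equal totals turned them to 168 and 187. The authors' deposited table of 398 genes, each at least 2-fold apart with a p-value under 0.05, lists 0 of the 8. Those p-values rest on the same single library per condition, so they do not measure variation between cultures.

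**Figure D1:**
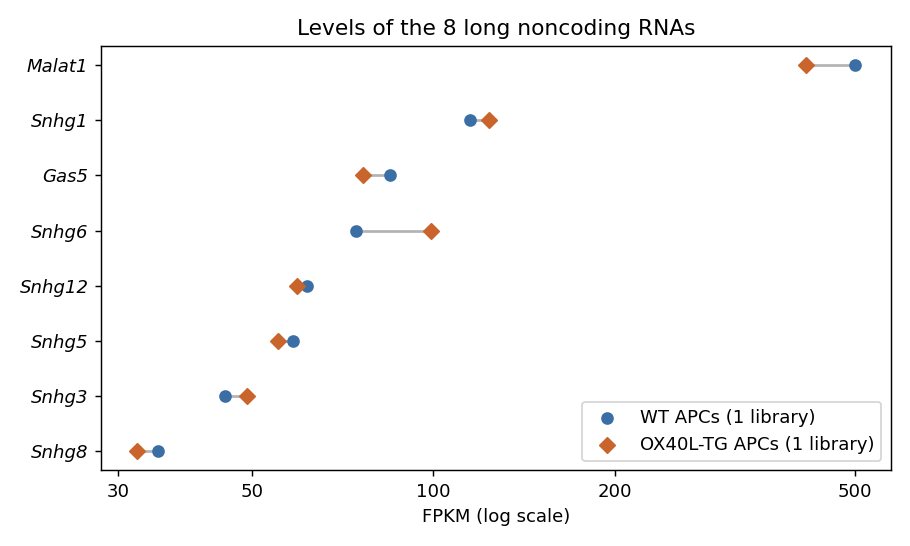
FPKM (horizontal axis, log scale) of the 8 RNAs with a row, as circles for the WT APC library and diamonds for the OX40L-TG APC library, joined by a grey line for each gene. Malat1 lies far above the others in both libraries, and Snhg6, at 74.5 and 99.4 FPKM, has the longest line relative to its level.

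Intervals beside the ratios are 95% exact (Clopper-Pearson) and cover counting error only. They rest on about 23800000 fragments in the WT APC library and 27200000 in the OX40L-TG APC library, depths estimated from the steps of low FPKM values, and on the shortest annotated transcript of each gene. They are rough, since the gene models used for the deposited values are not given in the sources used here. The shortest transcript gives the fewest fragments and so the widest interval. A value that lies just inside an interval could therefore fall outside it with a longer transcript.

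Gas5 (Entrez 14455, chromosome 1, 161034601 to 161038539, plus strand) is a host of C/D box snoRNAs. It is named for growth arrest, and its spliced RNA is known to bind the glucocorticoid receptor. It stood at 84.9 FPKM with WT APCs and 76.5 FPKM with OX40L-TG APCs. The ratio was 0.901 (0.811 to 1.002), an interval that includes 1 by a small margin and would be narrower with a longer transcript. Its log2 change of -0.15 lay 0.26 below the median of all genes.

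Snhg1 (Entrez 83673, chromosome 19, 8723487 to 8726326, plus strand) carries the U22 snoRNA gene Snord22 and other C/D box snoRNA genes. It stood at 115 FPKM with WT APCs and 124 FPKM with OX40L-TG APCs, a ratio of 1.07 (0.980 to 1.18). Its log2 change of 0.10 was close to the median of all genes and turned to -0.08 with equal totals, so no direction is given. The locus printed for it also holds the protein-coding gene Wdr74, at 44.5 and 43.8 FPKM. A separate assembled feature at 8723649 to 8724007, inside the Snhg1 gene, stood at 66.7 and 68.2 FPKM.

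Snhg5 (Entrez 72655, chromosome 9, 88521052 to 88522897, minus strand), known as a host gene of U50 snoRNAs, stood at 58.7 and 55.2 FPKM, WT first. Its ratio was 0.941 (0.843 to 1.05), which again includes 1.

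Snhg6 (Entrez 73824, chromosome 1, 9942025 to 9944118, minus strand), which carries the gene of the C/D box snoRNA Snord87, had the highest ratio of the 8. It stood at 74.5 FPKM with WT APCs and 99.4 FPKM with OX40L-TG APCs. The ratio was 1.33 (1.21 to 1.47), and with the transcript lengths used no other of the 8 intervals lay above 1. Its log2 change of 0.41 exceeded that of 85.4% of kept genes and lay 0.30 above their median, and with equal totals it was 0.23. Among annotated noncoding genes, the nearest in log2 change were the vault RNA gene Vaultrc5 (25.5 to 34.1 FPKM, 0.40), Gm10451 (1.33 to 2.05 FPKM, 0.39) and 5430416N02Rik (16.1 to 22.2 FPKM, 0.44). Over 2 libraries such likeness is a single difference and says nothing of shared control.

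Snhg3 (Entrez 399101, chromosome 4, 132351933 to 132353686, minus strand), host of the H/ACA box snoRNAs of the U17 family, had 45.2 FPKM with WT APCs against 49.2 with OX40L-TG APCs, a ratio of 1.09 (0.942 to 1.25). Its log2 change of 0.12 equalled the median of all genes within 0.0035, and it turned to -0.06 with equal totals. Snhg12 (Entrez 100039864) lies on the same chromosome at 132308678 to 132311024 on the plus strand and carries genes of both snoRNA classes. It had 61.8 against 59.4 FPKM, a ratio of 0.962 (0.862 to 1.07).

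Snhg8 (Entrez 69895, chromosome 3, 123507552 to 123508336, minus strand), host of the H/ACA box snoRNA gene Snora24, stood at 35.0 and 32.3 FPKM. Its ratio was 0.923 (0.798 to 1.07). The locus printed for it was merged with that of its neighbour Prss12, a protein-coding protease gene. Prss12 stood at 6.49 with WT APCs and 0.584 FPKM with OX40L-TG APCs, 11.1-fold lower, and the authors' deposited table does not list it. An assembled feature carrying the Prss12 identifier at that locus was listed at 1.34 and 0.182 FPKM, and one carrying the Snhg8 identifier at 9.46 and 9.53 FPKM. The large difference at the shared locus thus stood in the Prss12 rows, while both Snhg8 rows had similar values in both libraries.

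Malat1 (Entrez 72289, chromosome 19, 5795690 to 5802672, minus strand) was at 500 FPKM with WT APCs and 415 FPKM with OX40L-TG APCs. This placed it 87th and 125th among all kept genes by level. The ratio of 0.829 (0.799 to 0.861) had an interval below 1, and with the transcript lengths used no other of the 8 did. Its log2 change of -0.27 was lower than that of 91.1% of kept genes and lay 0.38 below their median. Neat1 (chromosome 19, 5824708 to 5845480, minus strand) has no row under its identifier. At the printed locus 5824707 to 5845478 the table holds 2 features with identifiers that it does not explain, and since the files do not pair them with a gene they are not called Neat1 here. One was listed at 2.56 and 2.87 FPKM, WT first, and the other at 0 and 0.0773 FPKM.

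**Figure D2:**
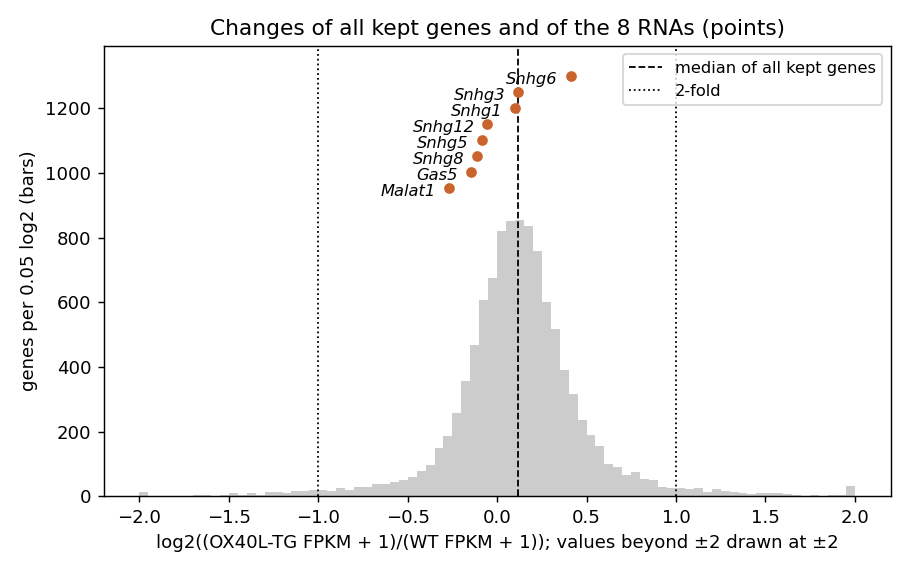
Histogram of log2 changes of the 10645 kept genes (bars, genes per 0.05 log2), with the 8 RNAs as points at arbitrary heights above it. The dashed line is the median of all kept genes, 0.11, and the dotted lines mark 2-fold. All 8 points lie between -0.27 and 0.41.

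By level the order with WT APCs was Malat1, Snhg1, Gas5, Snhg6, Snhg12, Snhg5, Snhg3 and Snhg8. There the interval of the ratio of neighbours included 1 only for Snhg12 over Snhg5 (1.05, 0.940 to 1.18). Gas5 over Snhg6 gave 1.14 (1.03 to 1.27). With OX40L-TG APCs the order differed in that Snhg6 stood above Gas5, with a ratio of 1.30 (1.18 to 1.43). There the interval included 1 for Snhg12 over Snhg5 (1.08, 0.965 to 1.20) and for Snhg5 over Snhg3 (1.12, 0.995 to 1.27). Summed over the 7 host RNAs the level was 475 FPKM with WT APCs and 496 FPKM with OX40L-TG APCs, a ratio of 1.04, while the median ratio of the 6038 genes with at least 10 FPKM in both libraries was 1.09. Set against that median ratio, the intervals of Gas5, Snhg5, Snhg8, Snhg12 and Malat1 lay below it, that of Snhg6 above it, and those of Snhg1 and Snhg3 included it.

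The snoRNA genes inside the hosts were measured in part. RefSeq places 26 snoRNA genes inside the 7 host genes, among them 8 in Gas5 and 8 in Snhg1, and 5 of the 26 have a row in the table. These are Snora73a and Snora73b in Snhg3, Snord22 in Snhg1, and Snora44 and Snora16a in Snhg12. The sequences of all but Snora44 are printed in DNA letters from GENCODE M21 transcripts, because length and likeness bear on how far the values can be read. For the Snora73 pair capitals mark the bases that differ between them, for Snord22 the last CTGA, the letters of a D box, and for Snora16a the last ACA, the letters of an ACA box.
Snora73a, chr4:132352775-132352979, minus strand: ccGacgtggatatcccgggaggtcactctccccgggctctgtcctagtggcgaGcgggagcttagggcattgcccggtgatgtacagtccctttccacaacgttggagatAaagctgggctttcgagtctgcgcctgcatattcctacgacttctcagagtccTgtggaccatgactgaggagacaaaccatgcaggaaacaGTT
Snora73b, chr4:132352322-132352526, minus strand: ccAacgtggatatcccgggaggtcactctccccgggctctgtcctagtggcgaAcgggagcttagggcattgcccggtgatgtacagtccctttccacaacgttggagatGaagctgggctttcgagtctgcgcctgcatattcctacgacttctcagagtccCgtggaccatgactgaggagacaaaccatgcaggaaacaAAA
Snord22, chr19:8725866-8725991, plus strand: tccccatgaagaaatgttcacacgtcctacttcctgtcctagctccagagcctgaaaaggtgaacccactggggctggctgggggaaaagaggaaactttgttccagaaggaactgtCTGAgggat
Snora16a, chr4:132309465-132309600, plus strand: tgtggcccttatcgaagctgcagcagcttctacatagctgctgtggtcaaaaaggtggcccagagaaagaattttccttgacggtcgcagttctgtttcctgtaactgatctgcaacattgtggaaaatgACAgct

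Snora73a and Snora73b share 198 of 205 positions, so reads can fit both and the split between them is uncertain. Snora73a was listed at 7779 FPKM with WT APCs and 9403 FPKM with OX40L-TG APCs, a ratio of 1.21. Snora73b was listed at 3079 and 3864 FPKM, a ratio of 1.25, beside 1.09 for the host Snhg3. Both rows were listed above their host's level in both libraries, for Snora73a by 172 times with WT APCs and 191 times with OX40L-TG APCs. The FPKM of a gene this short is not on a par with that of a longer host RNA. These multiples are therefore not ratios of molecules.

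Snord22 was listed at 2752 and 2716 FPKM, 23.9 and 22.0 times the level of Snhg1, multiples with the same limit. Its ratio was 0.987, beside 1.07 for the host. In Snhg12, Snora44 was listed at 503 and 558 FPKM, a ratio of 1.11. Snora16a was listed at 32.7 with WT APCs and 11.7 FPKM with OX40L-TG APCs, a log2 change of -1.41, so it was called lower while its host was at -0.06. Thus 1 of the 5 rows inside these hosts was called lower and none higher, against 1.32% and 2.26% of all kept genes. The Snora16a gene is 136 bases long and its row carries no interval, so that call may rest on few fragments.

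**Figure D3:**
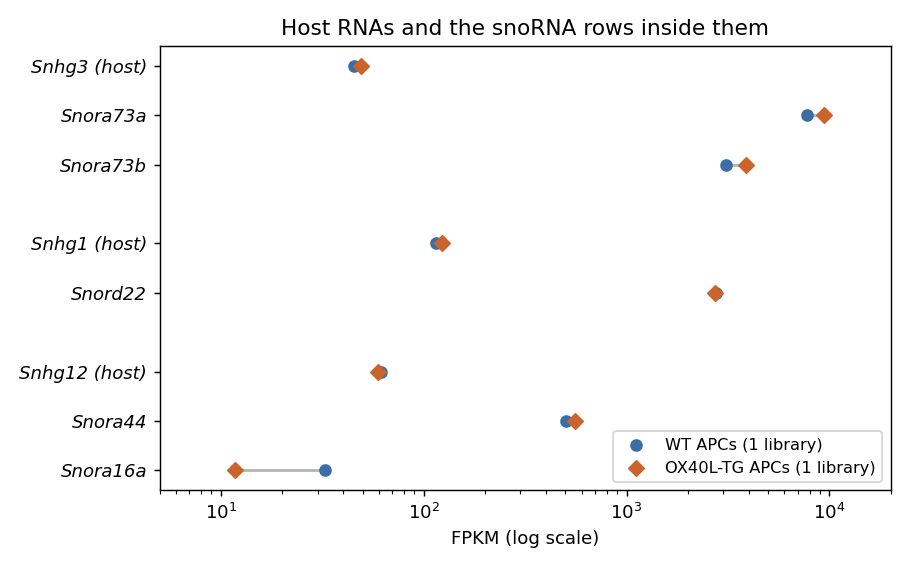
FPKM (log scale) of 3 host RNAs and the 5 snoRNA rows inside them, as circles for the WT APC library and diamonds for the OX40L-TG APC library. Snora73a and Snora73b lie far to the right of Snhg3 in both libraries, and Snora16a, at 32.7 and 11.7 FPKM, is the only row with a wide gap between libraries. The snoRNA rows carry no interval.

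The 5 rows are part of 29 snoRNA rows in the table, whose genes are 101 to 221 bases long. Between the libraries 5 rows were listed at 0 with WT APCs and above 0 with OX40L-TG APCs, and 1 the other way. In all, 9 rows were called higher and 2 lower, against 2.26% and 1.32% of all kept genes. The rows at 0 in one library are among these calls. Among those at 0 with WT APCs, Snora5c was listed at 1741 FPKM with OX40L-TG APCs, Snora31 at 204 FPKM and Snora15 at 179 FPKM, and Snora34 was listed at 53.0 and 0 FPKM. No fold is given against a value listed at 0. A few fragments can weigh heavily in the FPKM of genes this short. The fragments behind these rows were not worked out, so the rows carry no interval. Snora28 and Snora69, both 122 bases long, had the same value of 15.9915 FPKM with OX40L-TG APCs, as small counts of fragments can give. The authors' deposited table lists 0 snoRNA genes.

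In a list of 13 other noncoding snoRNA host genes, chosen by name and not by annotation, 11 have a row and 10 passed the filter. None was called higher and 1, Snhg9, was called lower, at 4.88 and 1.09 FPKM. Their median change was 0.12, close to the 0.11 of all genes. Zfas1 was the most abundant in this list, at 117 and 141 FPKM. The snoRNA inside Snhg9, Snora78, was listed at 166 and 300 FPKM, but the protein-coding gene Rps2 spans it as well.

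Protein-coding genes that carry a snoRNA gene on the same strand were found by annotation. Of 258 such genes 195 have a row and 182 passed the filter, many of them ribosomal protein and translation factor genes. None was called higher and 1 was called lower, the dipeptidase gene Dpep2, at 2.81 and 0.435 FPKM. For Dpep2 the authors' deposited table gives a log2 ratio of -2.66 with a p-value of 0.0234, from a single library per condition. Rpl12, which encodes a protein of the large ribosomal subunit, had the highest listed values, 2079 and 2272 FPKM, and the median change was 0.08. The locus printed for the Rpl12 row is on chromosome 10, and whether this is the locus of the host gene was not tested. Ribosomal protein rows in this list differed widely in level, with Rps13 at 0.627 and 0.640 FPKM. Why they differed was not tested, so single levels are to be read with caution.

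Among 20 genes for snoRNP core and assembly proteins, which bind snoRNAs into active particles, the median change was 0.05. None was called higher, and 1 was called lower, Nolc1, a chaperone of snoRNPs, listed at 56.8 with WT APCs and at 0 with OX40L-TG APCs. Pprc1, which shares the printed locus with Nolc1, was listed at 12.7 and 0 FPKM, and a value of exactly 0 can be a failed estimate, so no fold is given. Nop10, a core protein of H/ACA particles, was at 108 and 113 FPKM and Nop56, a core protein of C/D particles, at 101 and 106 FPKM. The most abundant over both libraries was Nop10.

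None of 18 genes of nonsense-mediated decay was called in either direction, and their median change of 0.11 equalled that of all genes. Upf1, the helicase at the centre of that pathway, stood at 28.7 and 26.6 FPKM, and Magoh, an exon junction protein, was the most abundant at 133 and 130 FPKM.

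Proteins that share the nuclear bodies of Neat1 and Malat1 gave similar counts. None of 19 paraspeckle protein genes was called, with a median of 0.11, and Nono, a core paraspeckle protein, was the most abundant at 127 and 153 FPKM. None of 22 genes of nuclear speckle and splicing proteins was called, with a median of -0.02 and a range of -0.21 to 0.18. Srsf2, a splicing factor that marks speckles, was the most abundant at 271 and 261 FPKM. The median of the speckle list lay below that of all genes, as did 18 of its 22 members, and no test was made of this difference.

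The glucocorticoid receptor, known as a partner of Gas5 RNA, is encoded by Nr3c1, which stood at 9.72 and 11.6 FPKM. Of 11 kept genes among the receptor and its known targets, 2 were called higher and 1 lower, against 2.26% and 1.32% of all kept genes. Their median was 0.38, beside 0.11 over all kept genes. The list was chosen with earlier results of these data known, and a link of these values to Gas5 was not tested. Tgm2, a transglutaminase gene and the most abundant, was at 125 and 356 FPKM, and the stress gene Ddit4 at 109 and 227 FPKM. Sgk1, a kinase gene, was lower at 22.3 and 6.66 FPKM. The targets Tsc22d3 (18.9 and 24.8 FPKM) and Fkbp5 (12.2 and 16.2 FPKM) were called in neither direction.

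**Figure D4:**
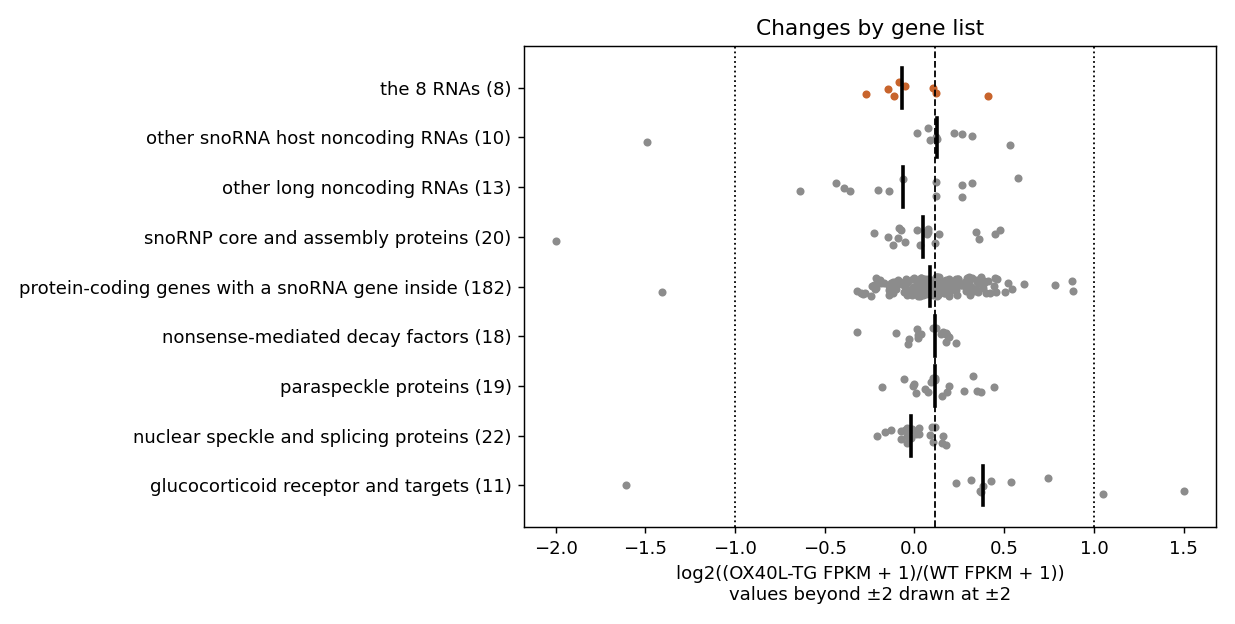
Log2 change of each kept gene (points) in the 8 RNAs and 8 gene lists, with the number of genes in brackets and the list median as a black bar. The dashed line is the median of all kept genes and the dotted lines mark 2-fold. The point at the left edge is Nolc1, listed at 0 with OX40L-TG APCs.

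The cells carried T cell markers in both libraries, with a summed level of 1026 and 1018 FPKM over 5 genes, none of them called. Among the Th17 markers reported here Il17a, Il17f and Il23r were called lower. B cell markers were lower in the OX40L-TG APC library in 4 of 8 by call and in 8 of 8 by sign, with a summed level of 52.8 and 22.0 FPKM. Among 5 MHC class II genes 3 were called lower and 4 were lower by sign, with sums of 357 and 228 FPKM, while H2-Ab1 stood at 92.7 and 98.9 FPKM. In the myeloid list 2 of 3 kept genes were called lower, with sums of 8.93 and 2.91 FPKM, and of 6 dendritic cell genes only Flt3 was kept, at 3.46 and 1.09 FPKM. The other dendritic cell genes were under 1 FPKM in both libraries. Clec9a and Siglech were at 0.0249 and 0.0511 FPKM with WT APCs and at 0 with OX40L-TG APCs. Itgax was at 0.404 and 0.112 FPKM, WT first, Xcr1 at 0.0620 and 0.0155 FPKM, and Zbtb46, in the other direction, at 0.788 and 0.934 FPKM. Gzma was the only kept NK cell gene. The part of these cells in the values of the 8 RNAs was not tested.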

How the data were processed

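The authors deposited FPKM values per gene for both libraries and a table of 398 genes with log2 ratios and p-values, per the file headers. TopHat2 and Cuffdiff on mm9 are named, per the submitters' processing notes. The versions used, the models of genes and the handling of strand are not given in the sources used here. The printed loci overlap the GRCm38 positions of RefSeq for 99.7% of the 13030 matched of 13056 Entrez identifiers, so coordinates are those of GRCm38, from RefSeq unless called printed. The printed starts are 1 lower than the RefSeq starts where the models match.

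Changes used a pseudocount of 1 FPKM and a filter of 1 FPKM on the larger value. Depth was estimated from 88 genes with 1 annotated transcript of at least 1500 bases and values under 0.3 FPKM, of which 58.0% had whole-number fragment ratios within 0.2%, and the steps were checked on simulated data. Members and lists were chosen with earlier results of these data known. All 9 members were named, and in each list the genes past 2-fold and the most abundant one. In addition, Upf1, Nop56, Nr3c1, Tsc22d3, Fkbp5, Snora78, Pprc1, Prss12, Norad, Morrbid and H2-Ab1 were named after their values were seen. The same holds for Rps13, Snora28, Snora69 and the dendritic cell genes that did not pass the filter. Analyses used Python 3.11.15, pandas 2.3.3 and SciPy 1.17.1. One marker gene of a cell type list is not reported here.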

Additional observations from a re-analysis of the deposited data

How the results depend on the processing

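The count of the 8 RNAs past 2-fold was 0 in each direction under all 6 alternatives: a pseudocount of 0.1 or 5 FPKM, no filter, a filter at 5 FPKM, scaling by the median ratio and equal totals. The median change of the 8 was -0.20 with the median ratio set to 1 and -0.25 with equal totals, against -0.07 as reported. Snhg1 and Snhg3 changed sign under both scalings and the other 6 under none. Calls over all genes were 405 higher and 251 lower with a pseudocount of 0.1, and 101 and 39 with one of 5. At 5 FPKM the myeloid, dendritic cell and NK cell lists kept no gene. No paired analysis was possible because each condition has 1 library, and for the same reason none could be left out.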

Other observations

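Among the other 204 long noncoding genes that passed the filter, 5 were called higher with OX40L-TG APCs and 2 lower. These shares are near those of all kept genes, 2.26% higher and 1.32% lower, and are no result about this class. The median change was 0.01 beside 0.11 over all genes. Gm13546 had the largest change, from 5.10 FPKM with WT APCs to 38.2 FPKM with OX40L-TG APCs. The authors' deposited table gives it a log2 ratio of 2.94 with a p-value of 1e-04, from a single library per condition. I730030J21Rik stood at 16.4 and 42.1 FPKM, Gm16008 at 0.934 and 4.61 FPKM, D330023K18Rik at 0.324 and 2.31 FPKM and 2810408I11Rik at 2.72 and 6.63 FPKM. The lower ones were Snhg9 and AI504432, the latter at 7.65 and 2.77 FPKM. Of the genes called here, Snhg9, D330023K18Rik and 2810408I11Rik are not in the authors' deposited table. After Malat1 the most abundant were 2410006H16Rik (227 and 316 FPKM), AW112010 (145 and 224 FPKM) and Zfas1. These long noncoding genes were named after their values were seen.

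The most abundant noncoding rows of the table were RNA polymerase III products. The RNase P RNA gene Rpph1 was listed at 50463 and 54784 FPKM, the 7SK RNA gene Rn7sk at 50763 and 53075 FPKM, and the RNase MRP RNA gene Rmrp at 22153 and 24040 FPKM. Rn7sk and others of this kind have near-identical copies, so their values are uncertain. In a list of 22 other long or structured noncoding RNAs, 13 passed the filter, none was called in either direction, and the median change was -0.06. Norad, a cytoplasmic RNA that binds Pumilio proteins, was at 36.5 and 34.9 FPKM, and Morrbid, known in mice for control of the neighbouring Bcl2l11, at 9.91 and 6.01 FPKM. The microRNA gene Mir703 was listed at 0 and 169 FPKM.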
